A study of Mus musculus with 14 samples.

Results

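10 genes of insulin-like growth factor (IGF) signalling were followed in cultured islets of newborn mice. They were the ligand Igf1, the receptors Igf1r and Insr, the adaptors Irs1 and Irs2, and the binding proteins Igfbp2, Igfbp3, Igfbp4, Igfbp5 and Igfbp7. The members were chosen by gene symbol, and all 10 were found among the 54532 genes of the deposited count table. All 10 also passed the filter on low counts, which left 18732 genes for testing. The islets came from pups of the C57BL/6JRj strain at postnatal day 0, male or female, and pancreases of several pups were combined into each biological sample. Handpicked islets were treated for 1 day in culture at 11 mM glucose, either with 10 µM Adjudin, an indazole-based small molecule, or with its solvent DMSO (0 µM). The labels name no genetic change in either group, and all libraries share strain, age and medium. There were 7 Adjudin and 7 DMSO libraries, and the labels assign an Adjudin and a DMSO library with the same replicate number to the same batch. These are called a pair. RNA was measured as reads per gene, so a level in whole islets combines all cell types, and fewer cells of a type cannot be told apart from less RNA per cell.

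IGF1, IGF2 and insulin are related hormones that signal through the tyrosine kinases IGF1R and INSR. The activated receptors phosphorylate the adaptors IRS1 and IRS2, which recruit phosphoinositide 3-kinase and thereby activate AKT. AKT raises mTORC1 activity and keeps FoxO transcription factors out of the nucleus. IGF binding proteins hold IGFs outside the cell, extend their life and limit or deliver them to the receptor, while IGFBP7 binds IGFs only weakly. In mouse beta cells, loss of Irs2 leads to failure of beta cell mass, and insulin and IGF1 receptors are known for their part in beta cell growth and function.

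Between 26475749 and 36900026 reads were counted per library, except for DMSO replicate 7 with 108865228. Ins2, the main mouse insulin gene, was at 581 to 8250 CPM (counts scaled to library size by trimmed means of M-values) in Adjudin libraries and at 2.22 to 9900 CPM in DMSO libraries. Replicate 5 stood apart from the rest. The 8 beta cell markers summed to 1300 CPM in Adjudin replicate 5, against 5080 to 16500 CPM in the other 6 Adjudin libraries, and to 26.3 CPM in DMSO replicate 5, against 4890 to 17900 CPM in the other 6 DMSO libraries. In that DMSO library the beta and alpha cell hormones were near 0, with Ins2 at 2.22 CPM, Ins1 at 7.27 CPM and Gcg at 0.0924 CPM. Its delta cell score, the mean log2 CPM of Sst and Hhex, was 5.74, within the 5.53 to 6.38 of the other DMSO libraries. Mesenchymal markers were abundant throughout, at 17100 to 30800 CPM in Adjudin libraries and 16800 to 32900 CPM in DMSO libraries. Hepatocyte markers summed to 539 CPM in Adjudin replicate 3 and to between 1.17 and 6.29 CPM in every other library. Values with and without these libraries are given where a result rests on them.

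None of the 10 genes passed an adjusted p of 0.05 between Adjudin and DMSO in edgeR (quasi-likelihood F test, Benjamini-Hochberg over all genes tested), which called 0.00534% of all genes. At an unadjusted p under 0.05, edgeR counted 0 of the 10, against 2.26% of all genes. Fold changes were small, with 4 of 10 log2 fold changes above 0 and a median of −0.0382, beside a median of −0.0128 over all genes. For 9 of the 10 genes the 95% interval of the difference lay within 1.5-fold either way, Igfbp2 being the exception. The highest and lowest values of the groups overlapped for every member, and the share of all genes for which they do was not counted. Blocking on the replicate number, which compares libraries of the same batch, also gave 0 calls among the 10 by edgeR (0.0% of all genes) and by DESeq2 (0.589% of the 18859 genes to which it gave an adjusted p). At an unadjusted p under 0.05 the blocked fits counted 1 of the 10, Igfbp4, against 5.63% of the 18732 genes by edgeR and 6.19% of the same genes by DESeq2, or 3.67% of the 38028 genes that DESeq2 fitted without the filter.

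**Figure D1:**
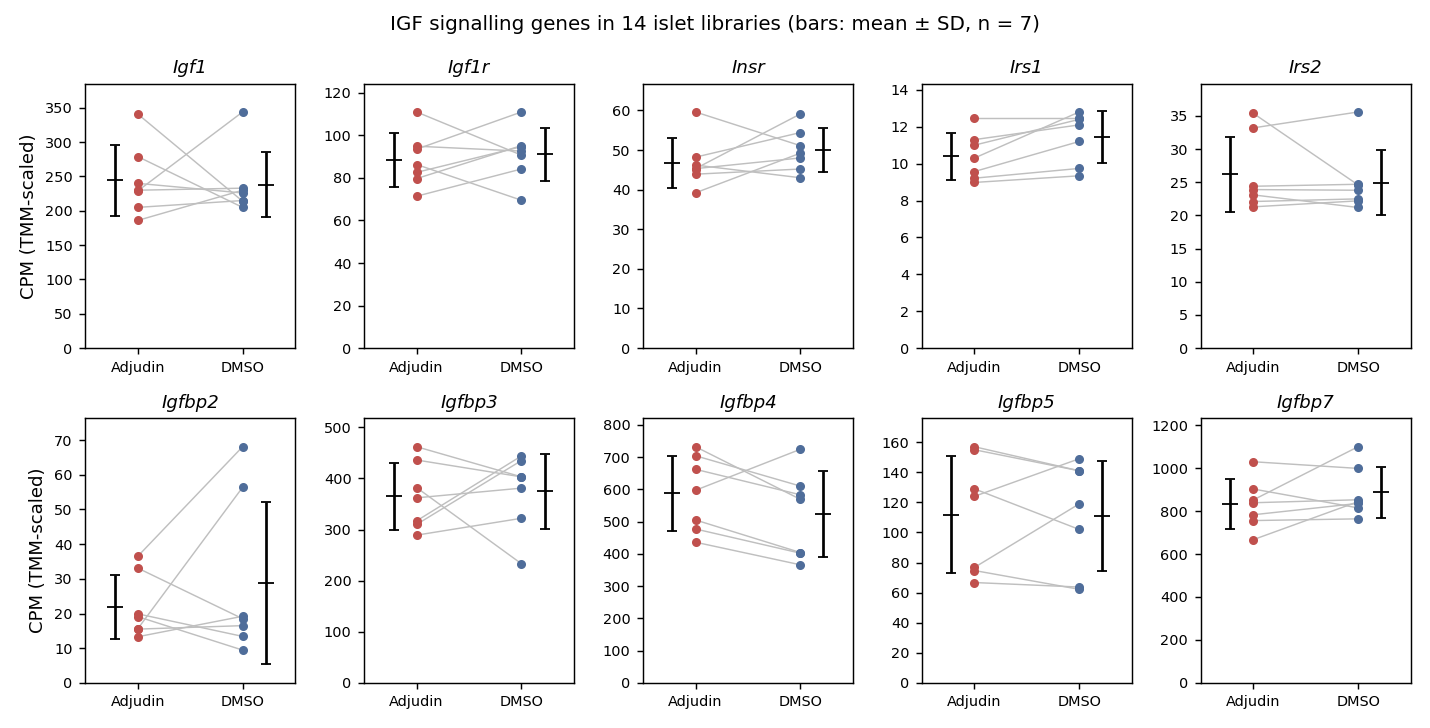
Levels of the 10 genes in CPM (vertical axes, linear from 0) in 7 Adjudin and 7 DMSO libraries, with grey lines joining libraries of the same replicate number and bars showing mean ± SD. The groups overlap in every panel. Igfbp4 is higher with Adjudin in 6 of 7 pairs, for which no share of all genes was counted. Irs1 is lower in 7 of 7, as are 0.854% of all genes tested.

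Length-scaled levels (CPM per kilobase of the gene model) gave the order of the members. Igfbp7 was the most abundant, at 688 ± 94.4 in Adjudin and 734 ± 98.9 in DMSO libraries (SD, n = 7 each), and stood above the next gene in 14 of 14 libraries. Igfbp3 (117 ± 21.0 in Adjudin, 120 ± 23.7 in DMSO) and Igfbp4 (133 ± 26.5 in Adjudin, 118 ± 30.3 in DMSO) could not be ordered, since each was the higher of the pair in 7 of 14 libraries. Igf1 followed at 24.6 ± 5.19 in Adjudin and 24.0 ± 4.81 in DMSO libraries, above Igfbp5 in 11 of 14 libraries. Igfbp5 (18.6 ± 6.43 in Adjudin, 18.5 ± 6.08 in DMSO) was above Igfbp2 (11.8 ± 4.97 in Adjudin, 15.6 ± 12.6 in DMSO) in 11 of 14. The intracellular and membrane parts of the pathway came last. Igf1r was at 5.27 ± 0.768 in Adjudin and 5.43 ± 0.748 in DMSO, Irs2 at 4.15 ± 0.894 and 3.94 ± 0.769, Insr at 3.41 ± 0.458 and 3.64 ± 0.396, and Irs1 at 1.14 ± 0.140 and 1.25 ± 0.153, in the same order of groups. Each of these was above the next in at least 11 of 14 libraries. The 5 binding proteins together summed to 1920 ± 208 CPM in Adjudin and 1920 ± 291 CPM in DMSO libraries.

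**Figure D2:**
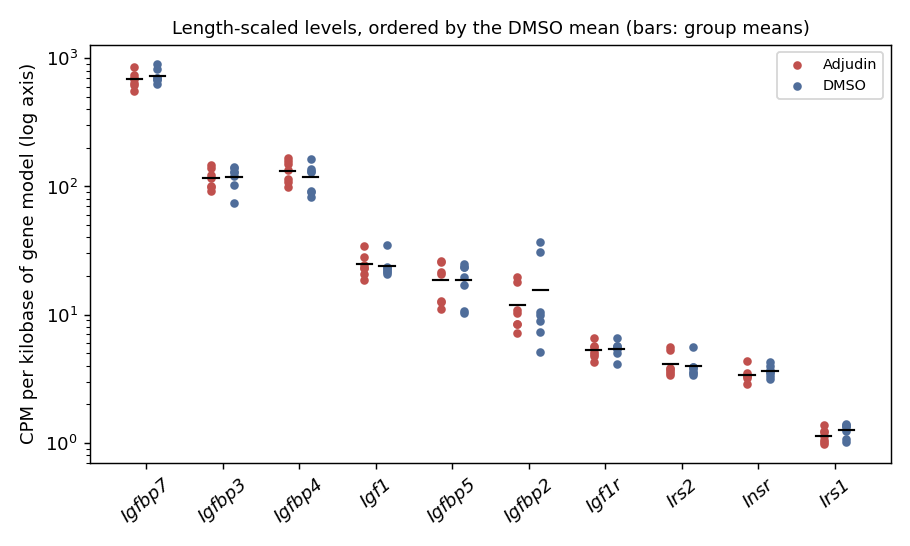
CPM per kilobase of gene model (log axis) of the 10 genes in Adjudin libraries (red) and DMSO libraries (blue), ordered by the DMSO mean, with bars at group means. Igfbp7 lies above all other members in all 14 libraries, while Igfbp3 and Igfbp4 overlap.

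Igf1 encodes the IGF1 ligand (ENSMUSG00000020053, chromosome 10, 87858265 to 87937042, plus strand, GRCm38). Its lowest, median and highest levels were 186, 230 and 341 CPM in Adjudin libraries and 205, 226 and 344 CPM in DMSO libraries. One library of each group stood above the rest, Adjudin replicate 6 and DMSO replicate 3, and the groups covered nearly the same range. The log2 fold change was 0.04 ± 0.14 (SE), with a 95% interval from −0.27 to 0.34 and higher values in 3 of 7 pairs. The Adjudin and DMSO levels of a pair correlated with Pearson's r = −0.24 and Spearman's rho = −0.57 (exact permutation p = 0.532 and 0.2, n = 7 pairs).

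Igf1r, the receptor for IGF1 and IGF2 (ENSMUSG00000005533, chromosome 7, 67952827 to 68233668, plus strand), had 71.4, 86.3 and 111 CPM as lowest, median and highest levels in Adjudin libraries and 69.5, 92.6 and 111 CPM in DMSO libraries. The log2 fold change was −0.04 ± 0.11 (95% interval −0.27 to 0.19), with higher values in 3 of 7 pairs. Insr, the insulin receptor (ENSMUSG00000005534, chromosome 8, 3122061 to 3279617, minus strand), ran from 39.2 over a median of 45.3 to 59.6 CPM in Adjudin libraries and from 43.0 over 49.2 to 59.1 CPM in DMSO libraries. Its log2 fold change was −0.09 ± 0.09 (95% interval −0.30 to 0.11), with higher values in 2 of 7 pairs. Both receptors varied little, with coefficients of variation of 14.6% in Adjudin and 13.8% in DMSO libraries for Igf1r and of 13.5% and 10.9% for Insr.

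Irs2, the adaptor that is needed for beta cell maintenance in mice (ENSMUSG00000038894, chromosome 8, 10984681 to 11008458, minus strand), was high in 3 libraries, 2 of them Adjudin and 1 DMSO. Levels were 33.2 and 35.4 CPM in Adjudin replicates 5 and 3 and 21.3 to 24.4 CPM in the other Adjudin libraries, against 35.6 CPM in DMSO replicate 5 and 21.2 to 24.7 CPM in the other DMSO libraries. The 3 high libraries are those with the lowest beta cell markers (both of replicate 5) and with hepatocyte markers (Adjudin replicate 3). Adjudin replicate 3 also had the highest beta cell score of the 14 libraries, a mean log2 CPM of 8.6. Irs2 and this score correlated with r = −0.48 (permutation p = 0.0811, adjusted 0.572). Without both libraries of replicate 5, r was 0.66 (permutation p = 0.00651, adjusted 0.391). With the hepatocyte score r was 0.32, and −0.44 without Adjudin replicates 3 and 5. Beyond these correlations, the part of these cells in the Irs2 level was not tested. The log2 fold change was 0.07 ± 0.14 (95% interval −0.24 to 0.38). It was 0.18 without DMSO replicate 5 and −0.0048 without Adjudin replicate 3, so that these libraries decide its size and sign.

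Irs1, the other adaptor (ENSMUSG00000055980, chromosome 1, 82233101 to 82291416, minus strand), was the member of lowest level, with 8.98, 10.3 and 12.5 CPM as lowest, median and highest values in Adjudin libraries and 9.34, 12.1 and 12.8 CPM in DMSO libraries. It was lower with Adjudin in 7 of 7 pairs, as were 0.854% of all genes tested. The within-pair differences of log2 CPM ran from −0.316 to −0.0016, so that the smallest was close to 0. The log2 fold change was −0.14 ± 0.11 (95% interval −0.38 to 0.10, unadjusted p = 0.222 and adjusted p = 1 by edgeR) and −0.14 ± 0.084 with the replicate block (unadjusted p = 0.133, adjusted p = 0.965). Of the exon bases of Irs1 in the GENCODE vM21 annotation, 30.9% also lie in exons of Gm9747 on the other strand. How the counting treated strand was not stated, so reads of both genes may not have been told apart. The share is 2.56% for Irs2, which overlaps 9530052E02Rik, 7.03% for Igfbp7, which overlaps Polr2b, and 0.0% for the other 7 members.

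Igfbp4 is a binding protein that inhibits IGF action until a protease cuts it, and one of the genes that the study lists as disallowed in mature beta cells (ENSMUSG00000017493, chromosome 11, 99041244 to 99054392, plus strand). Its lowest, median and highest levels were 436, 597 and 732 CPM in Adjudin libraries and 366, 569 and 724 CPM in DMSO libraries. It was higher with Adjudin in 6 of 7 pairs, by 0.185 to 0.362 on the log2 scale, and differed by −0.277 in pair 5, which holds the DMSO library nearly without beta and alpha cell hormones. The share of all genes at 6 of 7 pairs was not counted. Without the block the log2 fold change was 0.17 ± 0.17 (95% interval −0.19 to 0.53, adjusted p = 1 by edgeR). With the replicate block it was 0.19 ± 0.079, with an unadjusted p of 0.0403 and an adjusted p of 0.875 by edgeR and of 0.0251 and 0.621 by DESeq2. Leaving out both libraries of replicate 5, a choice made after the data were seen, gave 0.27 with an adjusted p of 0.331 by edgeR with the block. The study reports Igfbp4 as upregulated by Adjudin in these islets, the exception among the disallowed genes it names. Its cut-off was a p-value that it does not describe as adjusted, whereas a call here required an adjusted p. With the block, Igfbp4 was under the threshold only before adjustment.

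Igfbp5, a binding protein that attaches to extracellular matrix (ENSMUSG00000026185, chromosome 1, 72857932 to 72874884, minus strand), had 66.7, 124 and 157 CPM as lowest, median and highest levels in Adjudin libraries and 62.2, 119 and 149 CPM in DMSO libraries. Both groups were spread widely in the same way, and the log2 fold change was 0.01 ± 0.25 (95% interval −0.53 to 0.55). Much of this spread was shared by the libraries of a pair, since the SE fell to 0.111 with the replicate block. The Adjudin and DMSO levels of the same replicate number correlated with r = 0.79 for Igfbp5, 0.82 for Igfbp4 and 0.82 for Irs1 (exact permutation p = 0.0405, 0.0425 and 0.0266, n = 7 pairs each). Spearman's rho was 0.64, 0.68 and 0.75 (exact permutation p = 0.139, 0.11 and 0.0663). None of the 10 members passed when adjusted over the 10 relations (lowest adjusted p 0.142), and without the 2 pairs farthest from the median r was 0.37, 0.57 and 0.57. Over all genes tested the median of this r was 0.37.

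Igfbp2, a binding protein that is abundant in fetal tissues (ENSMUSG00000039323, chromosome 1, 72824503 to 72852474, plus strand), was the most variable member. It had 13.3, 19.1 and 36.5 CPM as lowest, median and highest levels in Adjudin libraries and 9.45, 18.5 and 68.1 CPM in DMSO libraries. The DMSO mean was set by replicates 2 and 4, at 56.4 and 68.1 CPM, while the other 5 DMSO libraries lay between 9.45 and 19.2 CPM. The log2 fold change of −0.40 ± 0.43 (95% interval −1.32 to 0.53) was −0.13 ± 0.35 with the replicate block, and within-pair differences ran from −1.85 to 1.01. Without the block it was −0.14 without DMSO replicate 2, −0.0232 without DMSO replicate 4, −0.0771 without pair 2, −0.1838 without pair 4 and −0.6086 without pair 1, so that single libraries decide its size. The 95% interval over all libraries is too wide to leave out a 2-fold lower level with Adjudin. Igfbp2 lies next to Igfbp5, 5457 bases apart and on the opposite strand, and their levels showed r = −0.04 over the 14 libraries (rho = −0.13, permutation p = 0.886 and 0.674).

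Igfbp3, the main carrier of IGFs in blood (ENSMUSG00000020427, chromosome 11, 7206086 to 7213923, minus strand), had 289, 362 and 462 CPM as lowest, median and highest levels in Adjudin libraries and 233, 403 and 444 CPM in DMSO libraries. The log2 fold change was −0.04 ± 0.14 (95% interval −0.35 to 0.28), with higher values in 3 of 7 pairs and pair differences from −0.490 to 0.714. Igfbp7 (ENSMUSG00000036256, chromosome 5, 77349240 to 77408041, minus strand) had 667, 839 and 1030 CPM in Adjudin libraries and 764, 844 and 1100 CPM in DMSO libraries. Its log2 fold change was −0.09 ± 0.11 (95% interval −0.33 to 0.14), with higher values in 2 of 7 pairs.

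**Figure D3:**
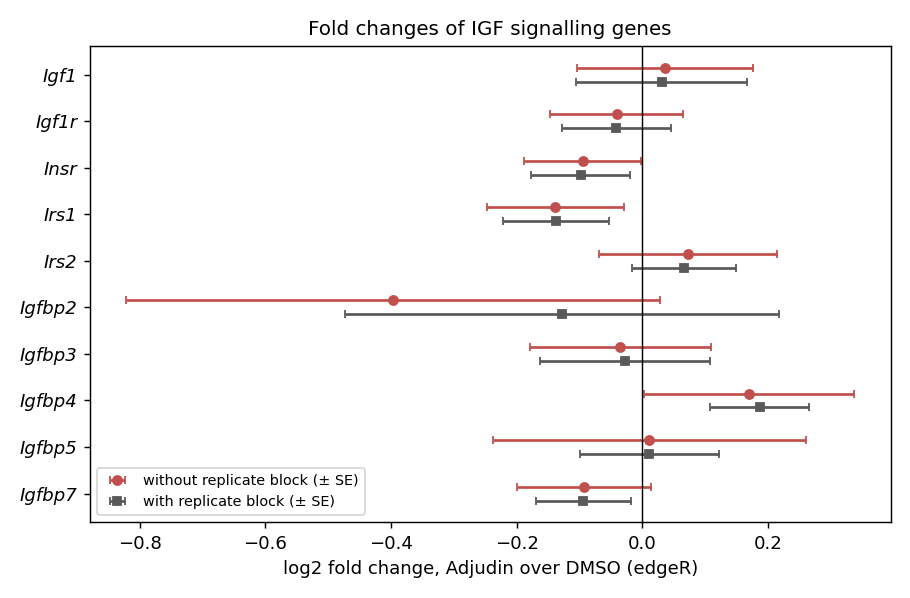
Log2 fold changes of the 10 genes, Adjudin over DMSO, by edgeR without the replicate block (red circles) and with it (grey squares), with bars of ± 1 SE. The block narrows the bars most for Igfbp5 (SE 0.111 with the block and 0.249 without) and Igfbp4 (0.0787 and 0.167), and moves the Igfbp2 value to −0.13.

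Among the members themselves, 2 of 45 pairs of genes varied together past an adjusted p of 0.05 over the 14 libraries, and 35 of 45 had an r above 0. The matching shares over pairs of all genes tested were not counted, so neither count can be called particular to the members. Both libraries of a replicate number share a batch and are not fully independent. The receptors Igf1r and Insr correlated with r = 0.78 and rho = 0.76 (permutation p = 0.00119 and 0.00256, adjusted over the 45 pairs 0.0315 and 0.0576). Their r was 0.79 in Adjudin and 0.80 in DMSO libraries, 0.85 without the 2 libraries farthest from the median, and 0.80 for the differences within pairs (exact permutation p = 0.0383, n = 7 pairs). Igfbp4 and Igfbp5 correlated with r = 0.80 and rho = 0.76 (permutation p = 0.0014 and 0.00241, adjusted 0.0315 and 0.0576), with 0.89 in Adjudin and 0.79 in DMSO libraries and 0.67 without the 2 farthest libraries. For the differences within pairs their r was −0.17 (exact permutation p = 0.713, n = 7 pairs), against the 0.80 of the receptors, and the difference between these values was not tested.

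The promoters of members that varied together are shown for orientation, from the RefSeq table for GRCm38.p6, as the 250 bases before the start of the RefSeq transcript on the gene's strand. For Igf1r and Igfbp5 that start differs from the gene bounds given above, which belong to the count table, and for Igfbp4 it matches them. Of the 10 members 9 have an entry, all but Insr. Capitals mark matches, on either strand, to the GC box letters GGGCGG and the TATA box letters TATAAA, 2 motifs whose matches cannot overlap. They occur in 32.7% and 12.4% of 32851 windows of this length, whose median GC content was 52.4%.
Igfbp4, chr11:99040994-99041243, plus strand: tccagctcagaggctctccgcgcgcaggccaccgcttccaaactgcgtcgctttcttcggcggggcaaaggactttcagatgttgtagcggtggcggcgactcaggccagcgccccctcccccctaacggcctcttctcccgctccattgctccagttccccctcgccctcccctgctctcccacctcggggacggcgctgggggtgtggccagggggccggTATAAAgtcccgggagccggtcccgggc
Igfbp5, chr1:72874866-72875115, minus strand: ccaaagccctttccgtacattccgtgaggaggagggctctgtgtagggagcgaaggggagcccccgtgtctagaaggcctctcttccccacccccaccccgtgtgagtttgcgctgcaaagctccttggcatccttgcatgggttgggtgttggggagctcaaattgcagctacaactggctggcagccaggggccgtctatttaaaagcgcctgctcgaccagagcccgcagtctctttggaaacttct
Igf1r, chr7:67952007-67952256, plus strand: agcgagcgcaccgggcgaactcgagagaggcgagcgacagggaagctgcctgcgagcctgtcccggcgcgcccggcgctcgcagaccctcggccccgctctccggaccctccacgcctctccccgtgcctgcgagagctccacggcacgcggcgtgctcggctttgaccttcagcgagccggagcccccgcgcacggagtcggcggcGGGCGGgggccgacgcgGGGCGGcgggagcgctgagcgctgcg
The Igfbp4 window held 1 TATA box match and no GC box at 69.2% GC. The Igfbp5 window held neither motif at 58.8% GC, and the Igf1r window held 2 GC boxes and no TATA box at 77.6% GC. Matches are a description of the sequence and not of a site in use.

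Cell type markers were set beside the members, as the mean log2 CPM of the listed markers in each library. Beta cell markers scored higher with Adjudin in 7 of 7 pairs, by 0.922 ± 1.226 (SD over pairs). Pair 5 differed by 3.65 and the other 6 pairs by 0.14 to 0.80, so that the mean was 0.467 ± 0.254 without it. Single markers did not all follow the score. Ins2 was higher with Adjudin in 2 of 7 pairs and Ins1 in 4 of 7, and the other beta cell markers were not counted by pair. Acinar markers scored higher in 6 of 7 pairs, by 1.98 ± 1.991 (2.10 ± 2.153 without pair 5). Mesenchymal markers differed by −0.038 ± 0.288. None of the 120 combinations of a member and 1 of 12 scores passed an adjusted p of 0.05 over the 14 libraries by permutation (10 at an unadjusted p under 0.05), and none did for the differences within pairs (12 unadjusted). By Pearson's r, 4 relations had a permutation p under 0.01. Igf1r and the endothelial score correlated with r = 0.79 and rho = 0.58 (permutation p = 0.00103 and 0.0318, adjusted 0.0618 and 0.525). The relation was r = 0.49 without the 2 farthest libraries (permutation p = 0.106) and therefore rests on them, and it was 0.62 within pairs (exact permutation p = 0.141). Igfbp7 and the mesenchymal score correlated with r = 0.76 and rho = 0.78 (permutation p = 0.00101 and 0.00166, adjusted 0.0618 and 0.0996), with r = 0.84 without the 2 farthest libraries and 0.66 within pairs (exact permutation p = 0.102). Igfbp7 ran against the ductal score (r = −0.74, rho = −0.70, permutation p = 0.00224 and 0.00703, adjusted 0.0705 and 0.251), with r = −0.60 without the 2 farthest libraries and −0.86 within pairs (exact permutation p = 0.0155). Igfbp5 ran against the red cell score (r = −0.76, rho = −0.78, permutation p = 0.00235 and 0.00134, adjusted 0.0705 and 0.0996), with r = −0.69 without the 2 farthest libraries and −0.86 within pairs (exact permutation p = 0.0113). The red cell score rests on 3 tested markers that were close to the floor in most libraries. The listed red cell markers summed to 1.07 to 103 CPM in Adjudin libraries (median 2.21) and 1.05 to 65.9 CPM in DMSO libraries (median 2.34).

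**Figure D4:**
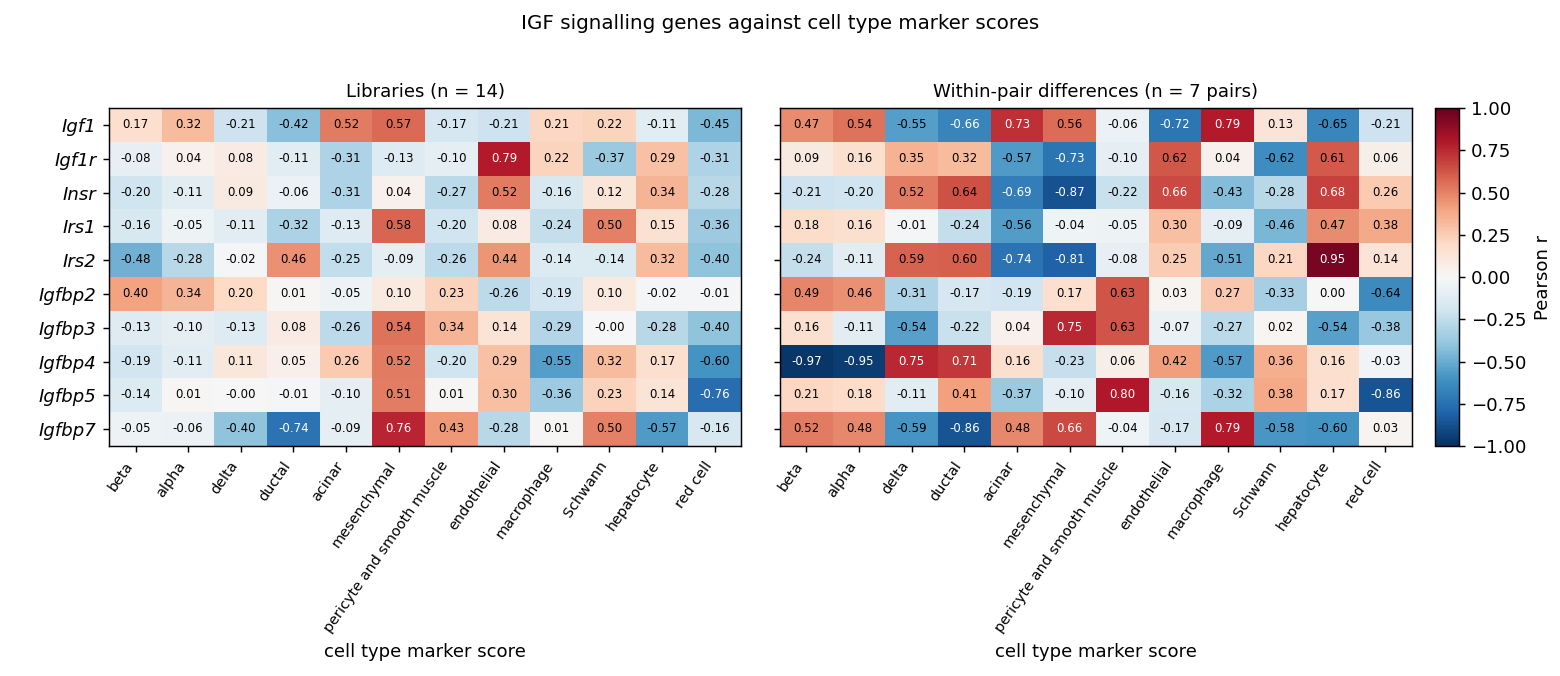
Pearson's r of the log2 CPM of each member (rows) with 12 cell type marker scores (columns), over 14 libraries on the left and over 7 within-pair differences, Adjudin minus DMSO, on the right. Igf1r with endothelial (0.79) and Igfbp7 with mesenchymal (0.76) are the highest positive values on the left, and none of the 120 relations passed the adjusted threshold in either panel.

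The within-pair difference of Igfbp4 ran against that of the beta cell score (r = −0.97, rho = −0.86, exact permutation p = 0.0155 and 0.0238, n = 7 pairs, adjusted 0.371 and 0.408). Without pair 5, whose DMSO library had almost no beta cell markers, r was −0.59 over 6 pairs. Over the 14 libraries the same relation had r = −0.19 and rho = 0.12 (permutation p = 0.563 and 0.683).

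For 9 of the members, 3 genes with the most similar profile over the 14 libraries were found among 14421 genes whose mean log2 CPM reached 1, as a description. Igf1r came closest to Fam53b (r = 0.963), Tmem131 (0.941) and Hipk1 (0.940). Irs1 came closest to Gk5 (0.926), Mast2 (0.925) and Slx4 (0.919), and Irs2 to Trib1 (0.891), Amot (0.885) and Sema3f (0.879). Igfbp4 was most like Mdh2 (0.944), Rab12 (0.942) and Mul1 (0.942), and Igfbp5 like Samd4b (0.950), Champ1 (0.950) and Leo1 (0.948). Igfbp7 was most like Foxs1 (0.921), Epdr1 (0.897) and Sec16b (0.896), and Igfbp3 like Cavin1 (0.877), Gm5884 (0.818) and Stk39 (0.798). The weakest likeness was that of Igf1, with Mto1 (0.865), Wdr46 (0.803) and Plekhg4 (0.798), and of Igfbp2, with Rce1 (0.811), Rrp36 (0.808) and Iqcc (0.724). No other member was among the 3 closest genes of these 9 members.

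The wider IGF and insulin pathway was read from a list of 70 genes in 10 roles, the members included, of which 68 were tested. Igfbp1 and Irs4 did not pass the filter. None of the 68 passed an adjusted p of 0.05 without the block or with it, by edgeR or DESeq2, and 25 of 68 log2 fold changes were above 0, with a median of −0.0337. An unadjusted p under 0.05 was reached by 0 genes without the block and by 5 with it, 2 higher and 3 lower, by edgeR and by DESeq2, which is 5 of 68 beside 5.63% and 6.19% of the 18732 genes.

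Of the ligands, Ins2 averaged 4690 ± 2700 CPM in Adjudin and 5120 ± 3430 CPM in DMSO libraries. Igf2, the fetal growth factor, was named after its values were seen. It had 19.5, 47.7 and 57.8 CPM as lowest, median and highest levels in Adjudin libraries and 26.0, 49.8 and 72.5 CPM in DMSO libraries. Its log2 fold change with the block was −0.36 ± 0.095, lower with Adjudin in 6 of 7 pairs (unadjusted p = 0.00403 and adjusted p = 0.729 by edgeR), and it was −0.34 ± 0.30 without the block. By DESeq2 with the block the unadjusted p was 0.00123 and the adjusted p was 0.123. The share of all genes at 6 of 7 pairs was not counted. In the annotation 64.5% of the exon bases of Igf2 are shared with Gm49394 or Igf2os, so its count is uncertain. Igf2r, the receptor that clears IGF2 and the most abundant receptor per kilobase, averaged 291 ± 76.7 CPM in Adjudin and 337 ± 103 CPM in DMSO libraries, with a log2 fold change of −0.19 ± 0.074 with the block (unadjusted p = 0.0261, adjusted p = 0.855).

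Among the binding proteins outside the members, Igfbp1, a liver product that insulin represses, was found mainly in 1 library. It had 599 counts in Adjudin replicate 3 and 0 to 6 counts in each of the other 13 libraries, and that library also held the hepatocyte markers, with Alb at 297 CPM. Igf1 and Igfbp2, 2 genes that liver also expresses, were at 229 and 15.5 CPM in the same library, inside the range of the other Adjudin libraries. Igfals, which forms the circulating complex with IGFBP3, averaged 2.97 ± 2.67 CPM in Adjudin and 1.80 ± 1.14 CPM in DMSO libraries (unadjusted p = 0.258 by edgeR). The Adjudin mean was raised by replicate 3, the library with hepatocyte markers and also with the highest beta cell score, at 8.08 CPM. It was 2.11 ± 1.56 CPM over the other 6, of which the highest was at 3.92 CPM. Igfals was lowest in the libraries of replicate 5, at 0.276 CPM in Adjudin and 0.308 CPM in DMSO. Which cells its reads came from was not tested. Igfbpl1 averaged 0.836 ± 0.441 CPM in Adjudin and 1.62 ± 2.33 CPM in DMSO libraries, where replicate 7 alone reached 6.86 CPM (unadjusted p = 0.138). The protease HTRA1, which can cut binding proteins, averaged 73.5 ± 16.8 CPM for its gene Htra1 in Adjudin and 83.0 ± 20.1 CPM in DMSO libraries.

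Downstream of the receptors, the most abundant genes per kilobase of their roles were the adaptor Shc1 (255 ± 17.2 CPM in Adjudin, 240 ± 17.9 CPM in DMSO), the receptor inhibitor Grb10 (464 ± 120 and 484 ± 133 CPM), the kinase Akt1 (351 ± 30.5 and 340 ± 33.7 CPM) and the translation repressor Eif4ebp1 (98.1 ± 12.6 and 93.8 ± 13.8 CPM). Igf2bp2, an mRNA binding protein, was at 62.3 ± 11.0 CPM in Adjudin and 66.6 ± 13.5 CPM in DMSO, and Cited2, a gene that FoxO factors activate, at 47.7 ± 4.80 and 49.9 ± 3.33 CPM. None of these passed, with an adjusted p of 1 by edgeR for each. The 3 Igf2bp genes all had log2 fold changes under 0, with a median of −0.118.

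Without the block, the smallest unadjusted p in each direction belonged to Pdk4 and Rictor. Pdk4, a kinase that restrains pyruvate oxidation and a known FoxO target, had 10.1, 12.4 and 20.3 CPM as lowest, median and highest levels in Adjudin libraries and 8.14, 10.1 and 15.5 CPM in DMSO libraries. Higher values in 7 of 7 pairs were found for Pdk4 as the 1 gene of the 68, against 0.945% of all genes. The smallest within-pair difference of log2 CPM was 0.00516, close to 0, in pair 5, where both libraries were at 10.1 CPM. Its log2 fold change was 0.31 ± 0.17 (unadjusted p = 0.0893) and 0.30 ± 0.094 with the block (unadjusted p = 0.00974, adjusted p = 0.745, by edgeR). Of the 11 FoxO factors and targets on the list, 4 had a log2 fold change above 0. Rictor, a subunit of mTORC2 listed here with the mTOR genes, averaged 44.8 ± 4.04 CPM in Adjudin and 50.0 ± 4.32 CPM in DMSO libraries, with a log2 fold change of −0.16 ± 0.075 (unadjusted p = 0.0545) and an unadjusted p of 0.0224 with the block (adjusted p = 0.854). Mtor averaged 50.3 ± 7.75 CPM in Adjudin and 55.5 ± 6.29 CPM in DMSO libraries (unadjusted p = 0.178).

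**Figure D5:**
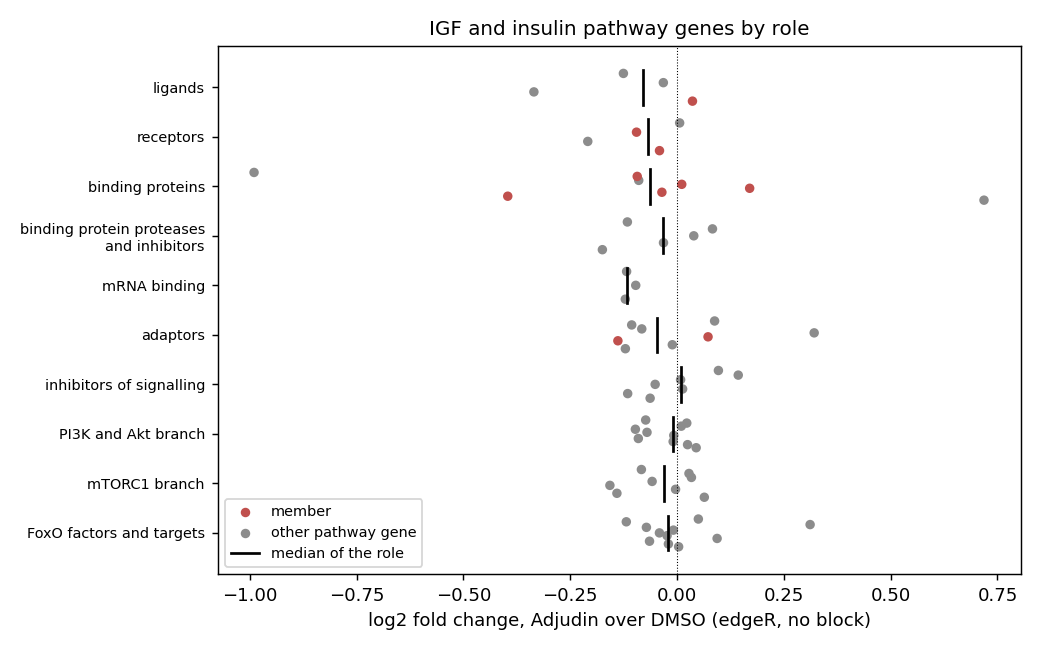
Log2 fold changes, Adjudin over DMSO, of the 68 tested pathway genes by role (edgeR without the block), with members in red, other genes in grey and a bar at the median of each role. The role medians lie between −0.118 (mRNA binding) and 0.00835 (inhibitors of signalling), and none of the 68 genes passed the adjusted threshold.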

How the data were processed

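The authors deposited read counts per gene with no normalization, made, per the labels and methods, with HISAT2 2.0.5 (paired-end alignment, GRCm38/mm10) and featureCounts 1.5.0-p3. Not given in the sources used here: annotation release, strand setting and handling of multi-mapping reads. From these counts, genes were kept by filterByExpr (minimum count 10), scaled by trimmed means of M-values (TMM), and compared in edgeR 4.0.16 (R 4.3.3, robust quasi-likelihood F test) by treatment alone, with Benjamini-Hochberg adjustment over all 18732 genes and a threshold of 0.05. The SE was the fold change over the root of F, and 95% intervals from the SE with 12 degrees of freedom. One count equalled 0.00968 to 0.0377 CPM. The numbers pair the libraries because the labels put same-numbered libraries in 1 batch. Deviations from the group means correlated across genes with r from −0.135 to 0.451 (mean 0.246) between same-numbered libraries, against −0.041 between others. The methods describe each biological sample as a pool of pups. Whether the 2 libraries of a pair came from separate pools is not stated clearly there.

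Alternatives were the replicate block, DESeq2 1.42.0 with and without it, limma-voom (limma 3.58.1), other scalings, no filter, and the removal of each library and pair. Correlations used log2 CPM (prior count 2) and two-sided permutation, exact for 7 pairs and with 100000 resamples for 14 libraries. Scripts were tested on simulated counts. The members, the pathway and marker lists and the tests were chosen with earlier results of these data known. Named genes were all members, pathway genes past the threshold with or without the block, the most abundant gene per kilobase of each role, the 3 of smallest unadjusted p in each direction, the 3 genes most like each member, and the markers. The genes most like Insr are not reported here. Exon overlaps used GENCODE vM21. The number of count columns not matched to a sample was 0.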

Additional observations from a re-analysis of the deposited data

Results flagged for a closer look

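Of 20 checks (10 members in 2 groups), 2 found a library farther from its group than Dixon's 95% limit for 7 samples, and chance gives about 1 in 20. In the first, Igf1 was at 229 CPM in Adjudin replicate 3 and at 344 CPM in DMSO replicate 3, and the gap to the next DMSO library was 0.8 of that group's range. Without both libraries the log2 fold change of Igf1 was 0.17. In the other, Irs2 was at 33.2 CPM in Adjudin replicate 5 and at 35.6 CPM in DMSO replicate 5, where the gap to the next DMSO library was 0.76 of the range. That DMSO library is the one with beta cell markers near 0.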

How the results depend on the processing

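No member and no gene of the pathway list passed an adjusted p of 0.05 under any of 35 alternatives (lowest adjusted p over the members 0.331, for Igfbp4). Signs were kept under all 35 for Insr (log2 fold change −0.15 to −0.04), Irs1 (−0.18 to −0.09), Igfbp4 (0.11 to 0.27) and Igfbp7 (−0.15 to −0.03). With the replicate block the values were 0.03 (Igf1), −0.04 (Igf1r), −0.10 (Insr), −0.14 (Irs1), 0.07 (Irs2), −0.13 (Igfbp2), −0.03 (Igfbp3), 0.19 (Igfbp4), 0.01 (Igfbp5) and −0.09 (Igfbp7), and the block changed no call. Igfbp5 turned to −0.0013 with limma-voom. The other changes of sign came from leaving out 1 library or pair, without the block over ranges of −0.0792 to 0.1739 for Igf1, −0.0959 to 0.0121 for Igf1r, −0.0048 to 0.1764 for Irs2, −0.1343 to 0.0539 for Igfbp3 and −0.0909 to 0.1052 for Igfbp5. Igfbp2 kept its sign there, at −0.6086 to −0.0232. Leaving out pairs in the blocked fit, chosen after seeing the data, turned Igf1 to −0.0342 (without replicate 5) and −0.0669 (6), Igf1r to 0.0028 (4) and 0.0014 (6), Igfbp2 to 0.1504 (2) and 0.0271 (4), Igfbp3 to 0.0637 (3), 0.0582 (6) and 0.004 (7), and Igfbp5 to −0.0308 (1), −0.0337 (4) and −0.0095 (5). The cause was not tested. For all genes, edgeR called 1 without the block and 0 with it, DESeq2 3 and 111, and limma-voom 0 (477 at an unadjusted p under 0.05). Of the 120 relations to cell type scores, 0 passed over all libraries, 1 without the 2 libraries farthest from the median score (Igfbp7 with mesenchymal markers) and 3 in DMSO libraries alone (Igfbp5 and Igfbp3 with red cell markers, Irs1 with mesenchymal markers). The spread of 7 libraries bounds differences at about the intervals given, not at 0.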
